A study of Camellia sinensis with 12 samples.

Results

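The genes described here are the basic helix-loop-helix (bHLH) transcription factors of tea leaves, followed through 24 h of withering. A gene was taken as a member when its deposited description contained basic helix-loop-helix or bHLH and not phytochrome, did not open with the words of a long database summary, and its counts over the 12 libraries summed to 120 or more. Of 52332 genes in the table, 169 had a matching description, 168 of them in an accepted form, and 122 reached the count sum. Of the 46 below it, 22 had no count in any library. Just inside the minimum lay CSS010950 with 120 counts and CSS021056 and CSS050931 with 135 each, and just outside it lay CSS000073 and CSS012533 with 116 each. The choice used descriptions and totals, not changes between times.

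The leaves came from Camellia sinensis, cultivar Longjing43. Plucked shoots of a bud and its youngest leaves were kept in a climate chamber at 25°C, and leaf RNA was sequenced after 0 h (labelled W1), 9 h (W2), 15 h (W3) and 24 h (W4), with 3 libraries per time. The sample labels describe the chamber as dark and the methods of the paper describe it as lit. The 0 h leaves are the only reference, and no unwithered shoots were sequenced at 9, 15 or 24 h, so withering, time since plucking and hour of the day cannot be told apart. That the 3 libraries at each time stem from separate lots of leaves is stated in none of the sources. The p-values therefore rest on a spread among libraries that may be technical only.

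The bHLH proteins form a large family of plant transcription factors. A basic region contacts DNA, most often at the E-box CANNTG, and the helix-loop-helix region joins the protein to a partner, so that these factors act as dimers with each other and in complexes with MYB proteins. In Arabidopsis they include MYC2 and its relatives, which switch on jasmonate responses when JAZ repressors are destroyed, ICE1 of cold response and stomatal development, the phytochrome-interacting factors of light signalling, TT8, GL3 and EGL3 of flavonoid and epidermal pathways, and the factors that control iron uptake. Atypical members lack DNA binding and hold others inactive.

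The deposited annotation names few of these roles. Of the 122 genes, 121 carry only the family name. The exception is MSTRG.10435 (CSS044833), described as ILI1 binding bHLH 1, the name of an atypical factor that restrains cell elongation in Arabidopsis and rice. The identity of MSTRG.8952 (CSS003725) comes from the paper, where it was cloned as CsbHLH. The paper picked it from transcriptome data of this series, as a factor whose expression correlated with the theanine hydrolysis gene CsPDX2.1. In its dual-luciferase assay, CsbHLH and the other factors apart from CsWRKY40 had little effect on the CsPDX2.1 promoter. Identifiers assembled from reads (MSTRG) name 102 members and reference models (CSS) name 20. The CSS members were all low, with means of 0.113 to 1.63 CPM (the usual count per library total, after scaling of the totals by TMM, the trimmed mean of M-values). The 122 loci spanned 621 to 18715 bp on 119 scaffolds. The table gives no exon lengths, so levels are compared between times of a gene and not between genes.

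Library totals ran from 64931031 to 118261728 counts. Every member passed edgeR's filter on low counts, as did 26712 genes in all, and 115 to 122 members had a count in each library. As a check of the tissue, 15 of 19 genes for rubisco small chains and chlorophyll-binding antenna proteins were tested, and their summed level was 10300 to 17000 CPM at 0 h and 1110 to 1270 CPM at 24 h. Markers of dividing cells (cyclins A and B and MCM proteins, 23 of 32 genes tested, 6 without a count) summed to 88.9 to 96.8 CPM at 0 h and 57.7 to 71.5 CPM at 24 h. The guard cell gene described as myb domain protein 60 was at 7.70 to 9.63 CPM at 0 h and 2.87 to 4.10 CPM at 24 h. The part of such shifts in the results that follow was not tested, and in bulk leaf RNA fewer cells of a type cannot be told apart from less RNA per cell.

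Across the family, falls outnumbered rises, most clearly at 15 h. Genes were compared by edgeR's quasi-likelihood test in 1 fit of all 12 libraries, with p-values adjusted over all genes tested (Benjamini-Hochberg) and a threshold of 0.05. At 9 h, 45 members were lower than at 0 h (36.9% of the members, against 26.8% of all genes tested) and 29 were higher (23.8%, against 27.1%). At 15 h, 59 were lower (48.4%, against 29.0%) and 23 were higher (18.9%, against 30.3%). At 24 h, 52 were lower (42.6%, against 39.1%) and 33 were higher (27.0%, against 34.7%). In either direction, 74, 82 and 85 members passed at 9, 15 and 24 h (60.7, 67.2 and 69.7%), against 53.9, 59.2 and 73.8% of all genes. The libraries of the later time and of 0 h did not overlap in 98, 92 and 89 members (80.3, 75.4 and 73.0%), against 67.0, 68.8 and 76.1% of all genes. The 3 comparisons share the 0 h libraries. The median log2 fold change of the members was -0.24, -0.63 and -0.51 at 9, 15 and 24 h, and that of all genes tested was -0.02, -0.01 and -0.14. In 106 members (86.9%, against 81.6% of all genes) the level changed over the 4 times by the F test of the same fit.

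The excess of falls at 15 h was present at each level of expression. Of the 47 members with a mean of at least 10 CPM, 22 were lower at 15 h than at 0 h (46.8%, against 26.8% of all genes of that level) and 12 were higher (25.5%, against 44.6%). Of the 48 members between 1 and 10 CPM, 26 were lower (54.2%, against 43.5%) and 10 were higher (20.8%, against 20.9%). Of the 27 members under 1 CPM, 11 were lower (40.7%, against 15.4%) and 1 was higher (3.70%, against 12%).

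From 9 to 15 h, 35 members fell (28.7%, against 18.1% of all genes) and 20 rose (16.4%, against 19.8%). From 15 to 24 h, 38 fell (31.1%, against 30.8%) and 37 rose (30.3%, against 25.9%). In either direction 55 and 75 members passed in these steps (45.1 and 61.5%, against 37.9 and 56.7% of all genes).

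Fewer members passed when a fold of at least 2 was tested in place of any change (glmTreat). At 9 h 10 members rose (8.20%, against 8.39% of all genes) and 18 fell (14.8%, against 6.72%). At 15 h 12 rose (9.84%, against 10.3%) and 27 fell (22.1%, against 10.6%). By 24 h 17 had risen (13.9%, against 18.5%) and 37 fallen (30.3%, against 23.2%). From 9 to 15 h 4 rose (3.28%, against 2.62%) and 7 fell (5.74%, against 3.15%), and in the last step 16 rose (13.1%, against 7.10%) and 11 fell (9.02%, against 9.06%).

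The direction of the counts depends in part on scaling. With library size as the only scaling, the median of all genes moved by -0.20, -0.29 and -0.67 (log2) at 9, 15 and 24 h against 0 h and by -0.37 from 15 to 24 h. Members then higher and lower numbered 26 and 55 at 9 h (against 21.1 and 34.5% of all genes), 17 and 71 at 15 h (against 21.5 and 38.9%), and 17 and 38 from 9 to 15 h (against 16.2 and 21.6%). At 24 h against 0 h, 20 members were then higher and 73 lower (against 21.8 and 55.4% of all genes), so that 21.5% of the called members were higher in place of 38.8%. From 15 to 24 h, 26 were then higher and 53 lower (against 15.5 and 45.9% of all genes), 32.9% of the called members in place of 49.3%.

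**Figure D1:**
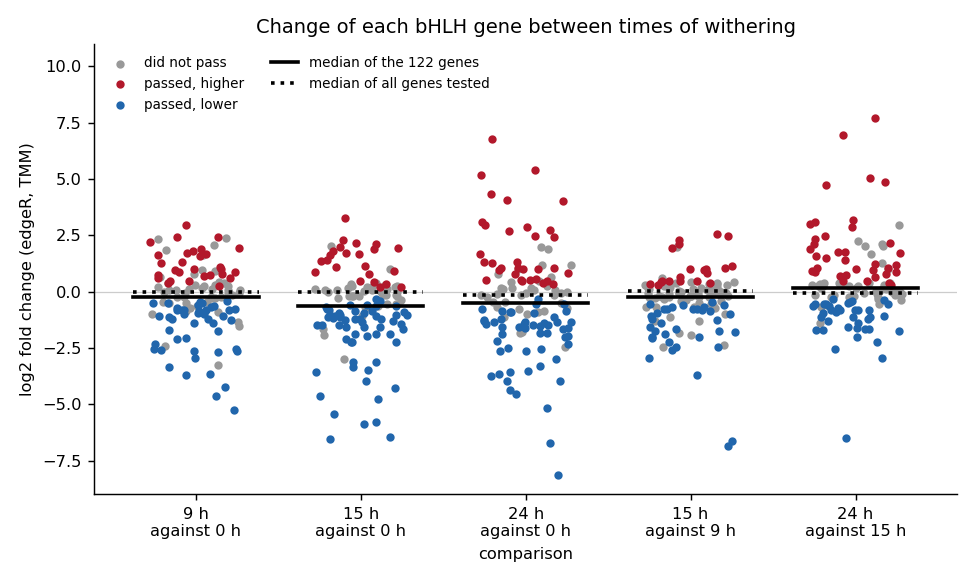
Log2 fold change (edgeR, TMM scaling) of each of the 122 bHLH genes in 5 comparisons of withering times. Each point is a gene, red or blue where it passed the test and grey where it did not, the solid bar is the median of the 122 genes and the dotted bar that of all genes tested. At 15 h against 0 h the median of the members lies at -0.63 and that of all genes at -0.01.

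The summed level of the 122 genes followed the same course at 15 h. At 0, 9, 15 and 24 h the sum was 2733 ± 20, 2535 ± 9.53, 2234 ± 60.7 and 3120 ± 24 CPM (SD, n = 3 throughout), and the libraries of different times did not overlap. In CPM of the unscaled library total, the sum was 3283 to 3426 at 0 h, 2679 to 2704 at 9 h, 2215 to 2249 at 15 h and 2363 to 2462 at 24 h. The 15 h libraries were lowest on both scales, whereas 24 h was above 0 h on the first and below it on the second. The genes behind the sum changed from time to time. MSTRG.18162 was the most counted member at 0 h, MSTRG.26346 at 9 h, MSTRG.24712 at 15 h and MSTRG.23895 at 24 h, and the 4 most counted members held 27.9 to 37.2% of the sum.

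**Figure D2:**
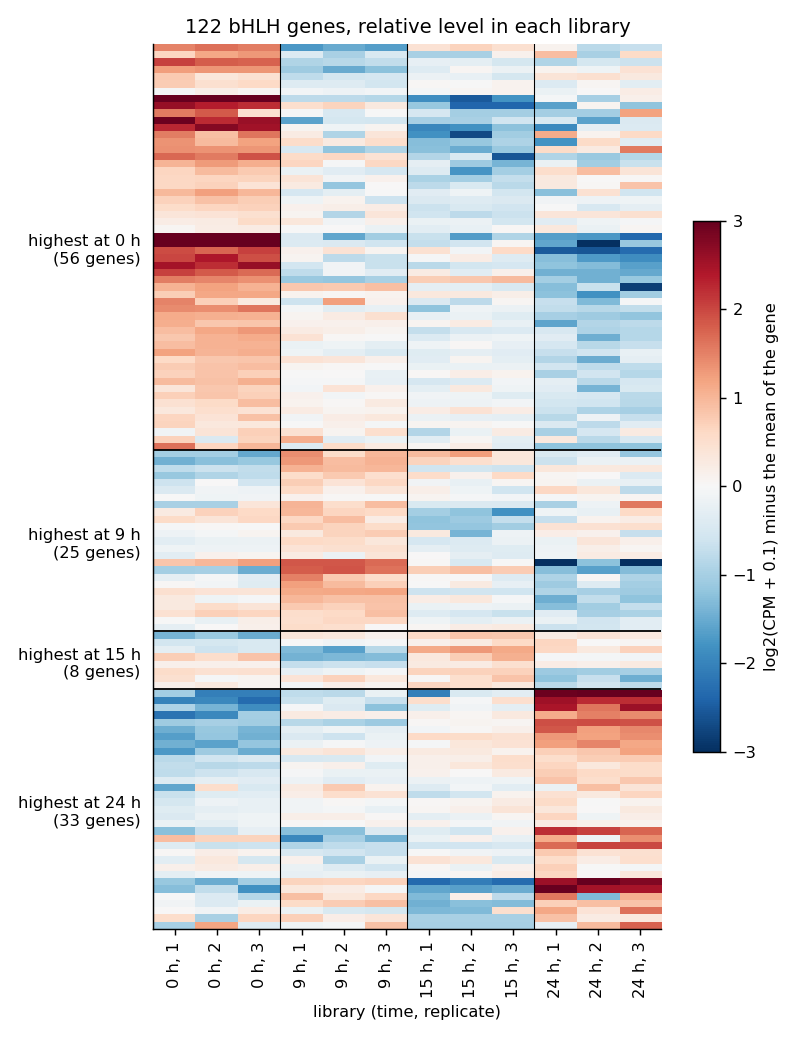
Level of the 122 bHLH genes (rows) in the 12 libraries (columns), as log2(CPM + 0.1) minus the mean of the gene, with red above and blue below the mean. Rows are grouped by the time of the highest mean, which was 0 h for 56 genes, 9 h for 25, 15 h for 8 and 24 h for 33.

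The largest group of members, 56 of 122, was at its highest in fresh leaves. That is 45.9% of the members, against 36.2% of all genes tested. MSTRG.5858 (CSS033818, Scaffold138 from 688697 to 690814, minus strand) had the largest fall named at 24 h. Its levels at 0 h were 14.3, 12.9 and 12.8 CPM, and those at 9 h were 0.519, 0.181 and 0.306 CPM. They stayed low, at 0.425, 0.159 and 0.345 CPM at 15 h and 0.163, 0.151 and 0.0633 CPM at 24 h. Each withered library was thus far below each fresh library. The log2 fold change was -5.28 (SE 0.39) at 9 h, -5.42 (SE 0.40) at 15 h and -6.71 (SE 0.45, edgeR quasi-likelihood adjusted p = 1.61e-08) at 24 h. MSTRG.49254 (CSS033327, Scaffold889) fell from 18.8, 17.9 and 16.0 CPM at 0 h to 1.42, 1.40 and 1.24 CPM at 9 h. At 24 h it was at 0.584, 0.0188 and 0.823 CPM, a log2 fold change of -5.16 (SE 0.54).

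MSTRG.18162 (CSS032900, Scaffold2360 from 1072255 to 1080758, minus strand) was the most counted member in fresh leaves. Its level was 293, 248 and 240 CPM at 0 h and 38.1, 40.0 and 42.2 CPM at 9 h. The groups lie far apart (log2 fold change -2.70, SE 0.12, edgeR quasi-likelihood adjusted p = 8.08e-10). It was at 55.7 ± 5.62 CPM at 15 h and 44.1 ± 5.74 CPM at 24 h (SD, n = 3), so most of its fall lay before the first withered time. In MSTRG.3061 (CSS043469) the fall came in stages, with means of 18.0 ± 1.94, 5.45 ± 0.786, 5.97 ± 1.40 and 0.762 ± 0.0826 CPM at the 4 times in order. The step from 15 to 24 h was -2.97 (SE 0.21) on the log2 scale, the largest fall named for that step. MSTRG.47224 (CSS040774) was at 4.01 ± 0.591 CPM at 0 h and 6.91 ± 0.463 CPM at 9 h, a difference that did not pass the test, and fell to 1.73 ± 0.315 CPM at 15 h and 0.313 ± 0.383 CPM at 24 h. The SD at 24 h comes from replicate 2 (0.754 CPM, against 0.122 and 0.0633 CPM in the others), and without it the log2 fold change at 24 h was -5.39 in place of -3.75, and that from 15 h was -4.17 in place of -2.55.

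Large falls were also seen in members below the level of MSTRG.18162. MSTRG.46801 (CSS030812) went from 13.8 ± 1.97 CPM to 1.81 ± 0.396, 1.57 ± 0.181 and 0.892 ± 0.145 CPM at the later times (log2 fold change -3.95, SE 0.22, at 24 h). MSTRG.24359 (CSS045402) changed by -3.95 (SE 0.32) and MSTRG.35187 (CSS045975) by -3.56 (SE 0.25) at 24 h. MSTRG.41538 (CSS045913) and MSTRG.21204 (CSS038451) were lowest at 15 h. MSTRG.41538 went from 18.4 ± 3.12 CPM at 0 h to 3.15 ± 0.253, 0.938 ± 0.296 and 1.87 ± 0.969 CPM, and MSTRG.21204 from 9.08 ± 0.243 CPM to 0.487 ± 0.0148, 0.152 ± 0.0632 and 0.776 ± 0.321 CPM. At 15 h against 0 h their log2 fold changes were -4.30 (SE 0.38) and -5.89 (SE 0.36). MSTRG.22546 (CSS047245), a member of lower level, fell by 3.14 at 15 h (SE 0.54), from 2.80 ± 0.361 to 0.317 ± 0.248 CPM.

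**Figure D3:**
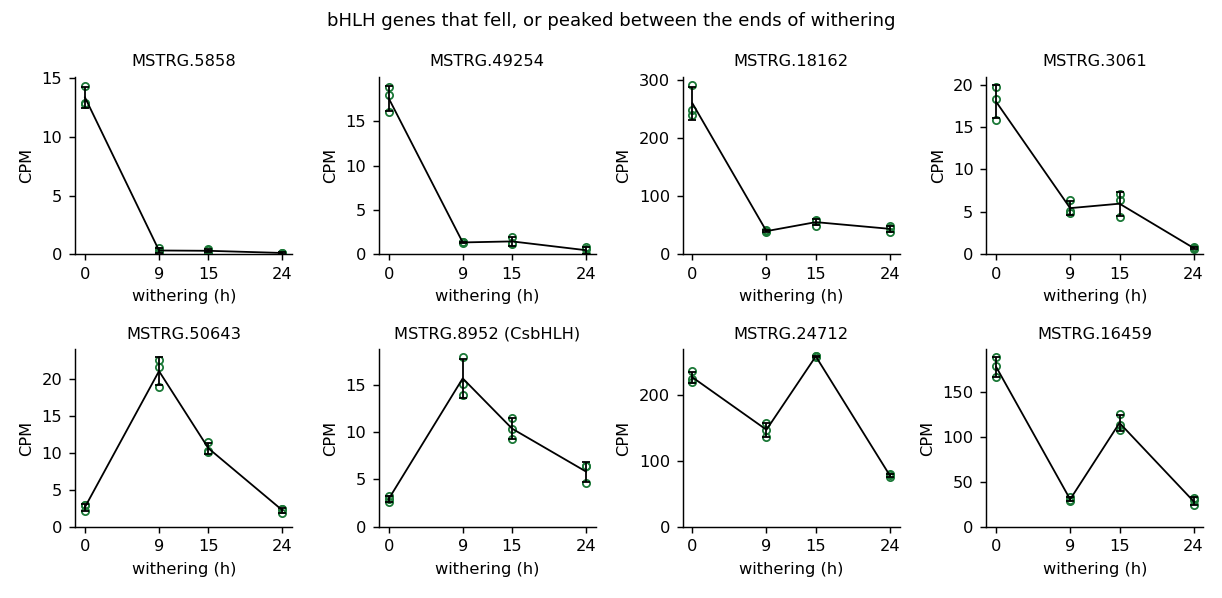
Level (CPM, TMM-scaled) of 8 bHLH genes against hours of withering. Open circles are libraries, and the line joins the means with SD bars (n = 3). The top row holds genes that were highest at 0 h, from 13.3 ± 0.874 CPM in MSTRG.5858 to 260 ± 28.2 CPM in MSTRG.18162, and the bottom row holds MSTRG.50643 and MSTRG.8952, highest at 9 h, and MSTRG.24712 and MSTRG.16459, which were lower at 9 h than at 0 or 15 h.

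Rises at 24 h included weakly and strongly counted genes, and MSTRG.23895 became the most counted member of the family. This gene (CSS033104, Scaffold295 from 1573300 to 1575246, plus strand) was at 61.6, 64.5 and 62.5 CPM at 0 h and at 71.7, 66.3 and 60.9 CPM at 9 h, which overlap. It was at 132, 137 and 135 CPM at 15 h and 492, 500 and 485 CPM at 24 h, so its rise lay in the later part of the series. The log2 fold change against 0 h was 0.08 (SE 0.07, adjusted p = 0.384) at 9 h, 1.10 (SE 0.07) at 15 h and 2.97 (SE 0.07, edgeR quasi-likelihood adjusted p = 1.67e-12) at 24 h. MSTRG.48405 (CSS029519, Scaffold859) changed later still. Its means in time order were 46.1 ± 5.11, 39.6 ± 3.09, 46.3 ± 1.98 and 254 ± 29.7 CPM, and the last step was 2.46 on the log2 scale (SE 0.11).

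Other members had risen by 9 h and were higher again at 24 h. MSTRG.8329 (CSS000474) was at 5.95 ± 1.05 CPM at 0 h and at 11.9 ± 1.76, 23.2 ± 1.14 and 39.4 ± 2.58 CPM at 9, 15 and 24 h, and each step passed the test. MSTRG.47052 (CSS007500), chosen after its values were seen, went from 35.3 ± 5.61 CPM to 85.3 ± 4.48, 110 ± 18.2 and 226 ± 25.4 CPM (log2 fold change 2.68, SE 0.14, at 24 h). MSTRG.22383 (CSS050176) went from 16.4 ± 2.06 to 120 ± 27.7 CPM over 24 h, with replicate 1 the highest of the 24 h libraries (151 CPM, against 97.3 and 112 CPM). MSTRG.100 (CSS027970) was near its limit of detection in fresh leaves, with 9, 12 and 5 counts, and had 345, 199 and 233 counts at 24 h, when its log2 fold change was 5.38 (SE 0.34). MSTRG.11607 (CSS007114) had means of 0.939 ± 0.24, 3.25 ± 0.232, 3.11 ± 0.222 and 5.13 ± 0.973 CPM in time order. MSTRG.35791 (CSS032374), in contrast, was highest at 15 h (11.8 ± 1.09 CPM, against 2.73 ± 0.385 CPM at 0 h), where it was 4.30-fold above fresh leaves by the fit.

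The largest fitted rise named at 24 h was that of MSTRG.19447 (CSS045092), and it rests on few counts in fresh leaves. The gene reached the mean of 1 CPM asked of named genes only through its 24 h libraries, so its place among them depends on the rise itself. Its counts were 9, 0 and 0 at 0 h and 18, 12 and 24 at 9 h. They were 0, 18 and 20 at 15 h, then 228, 217 and 276 in the last libraries. The 24 h libraries stood clear of the others, at 3.10, 4.09 and 4.37 CPM. The log2 fold change against 0 h was 6.77 (SE 1.08, edgeR quasi-likelihood adjusted p = 7.62e-05), 11.4 without 0 h replicate 1 and 6.13 without 0 h replicate 2, so the size of this change is poorly fixed. Against 15 h it was 4.73 (SE 0.92), and 4.14 without 15 h replicate 1.

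Low levels at 15 h were more common among the members than among all genes tested. The lowest mean fell at 15 h in 34 members (27.9%), against 11.5% of all genes tested, and the highest mean fell there in 8 members (6.56%), against 13.6%. Means over all libraries of these 34 ran from 0.118 CPM (CSS010950) to 118 CPM (MSTRG.11568). Members under 1 CPM had their lowest mean at 15 h more often than members of higher level. Not all of the 34 changed over time. CSS006957 and MSTRG.31848, for example, did not pass the F test (edgeR quasi-likelihood adjusted p = 0.280 and 0.0607). The share of all genes was not split by level of expression, so the part of weakly counted genes in the excess over all genes is not shown. With library size as the only scaling, an alternative added after the data were seen, the lowest mean fell at 15 h in 27 members (22.1%, against 9.77% of all genes), and with each library left out in turn in 32 to 36 members. These shares are descriptions and were not tested, since genes of a leaf are not independent of each other.

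MSTRG.44146 (CSS032397, Scaffold6890 from 189639 to 190979, plus strand) had the largest rise named from 15 to 24 h. It was at 9.62, 7.51 and 10.5 CPM at 0 h, 34.2, 33.4 and 34.2 CPM at 9 h, 4.19, 4.97 and 4.21 CPM at 15 h, and 126, 174 and 147 CPM at 24 h. No libraries of different times overlapped. The log2 fold change was 1.88 (SE 0.14) from 0 to 9 h, -2.93 (SE 0.15) from 9 to 15 h and 5.06 (SE 0.16, edgeR quasi-likelihood adjusted p = 1.68e-10) from 15 to 24 h. MSTRG.33578 (CSS038791) had a similar course at a lower level, with 0.244 ± 0.125, 0.803 ± 0.112, 0.171 ± 0.0126 and 5.02 ± 1.14 CPM at 0, 9, 15 and 24 h. Its log2 fold change was -2.22 (SE 0.36) from 9 to 15 h and 4.87 (SE 0.38) from 15 to 24 h.

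Among strongly counted members, MSTRG.11727 (CSS025882, Scaffold1804) was at 64.0, 51.6 and 59.9 CPM at 0 h, 103, 116 and 128 CPM at 9 h, 25.5, 28.9 and 28.1 CPM at 15 h, and 112, 130 and 125 CPM at 24 h. On the log2 scale it rose by 0.99 to 9 h (SE 0.10), fell by 2.07 to 15 h (SE 0.11) and rose by 2.15 to 24 h (SE 0.11). MSTRG.11568 (CSS002514), chosen after its values were seen, followed it with 106 ± 3.25, 170 ± 13.6, 49.0 ± 2.62 and 148 ± 3.64 CPM. MSTRG.26346 (CSS049619, Scaffold3284) also rose early and returned. It was at 88.9, 96.0 and 89.2 CPM at 0 h, 307, 289 and 297 CPM at 9 h, 98.7, 101 and 96.9 CPM at 15 h, and 188, 184 and 187 CPM at 24 h. At 15 h it did not pass the test against 0 h (log2 fold change 0.12, SE 0.06, edgeR quasi-likelihood adjusted p = 0.129). MSTRG.8524 (CSS013525) rose with it, from 132 ± 4.11 to 220 ± 3.06 CPM at 9 h, but went on to 64.9 ± 0.908 CPM at 15 h and 49.2 ± 2.75 CPM at 24 h.

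Gene lists picked by description were also followed. The JAZ list held 10 genes (4 types of jasmonate-zim-domain protein and 2 genes of their adaptor NINJA). At 9 h against 0 h, 5 were higher and 1 lower (against 27.1 and 26.8% of all genes tested). At 15 h 2 were higher and 4 lower (against 30.3 and 29.0%), and at 24 h 5 were higher and 2 lower (against 34.7 and 39.1%). The median log2 fold changes were 0.29, -0.33 and 0.36, against -0.02, -0.01 and -0.14 for all genes tested. At 24 h the list was split, from -1.71 in the adaptor gene MSTRG.46573 to 4.70 in MSTRG.41668 (type 8). The type 10 genes were at 2.92 and 3.38 and the type 1 gene at 2.09, while type 3 genes lay between -0.38 and 0.69. The xylem markers laccase 17 and xylem cysteine peptidase (7 of 7 genes tested, none without counts) summed to 39.5 to 43.4 CPM at 0 h, 80.8 to 104 CPM at 9 h, 35.4 to 38.2 CPM at 15 h and 76.5 to 97.7 CPM at 24 h. The rubisco and antenna list and the list of dividing cells had no such dip. They were at 2430 to 3050 and 74.9 to 85.8 CPM at 15 h and were lowest at 24 h. The list of pollen and anther genes fell from 342 to 364 CPM at 9 h to 186 to 221 CPM at 15 h. At 24 h it was at 213 to 293 CPM, which overlaps 15 h, and the root list was lowest at 0 h. The part of any of these lists in the course of the bHLH genes was not tested.

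**Figure D4:**
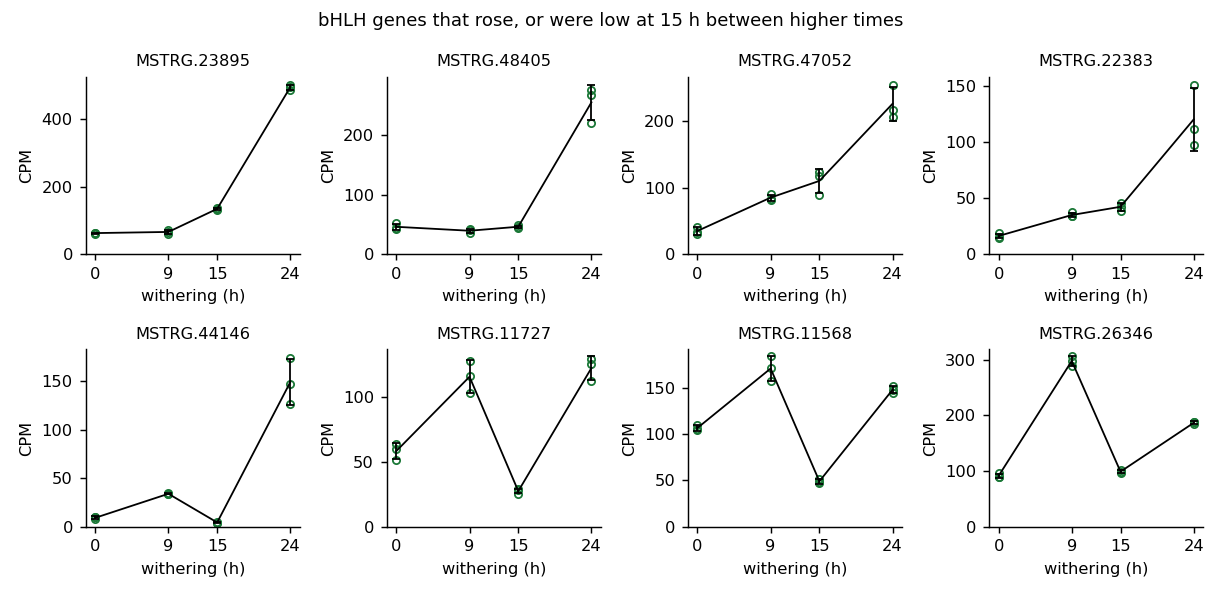
Level (CPM, TMM-scaled) of 8 bHLH genes against hours of withering, with open circles for libraries and a line through the means with SD bars (n = 3). The top row holds genes highest at 24 h without a dip at 15 h, up to 493 ± 7.45 CPM in MSTRG.23895. The bottom row holds genes with 9 and 24 h above 15 h, such as MSTRG.11727, which was at 27.5 ± 1.78 CPM at 15 h and 122 ± 9.01 CPM at 24 h.

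**Figure D5:**
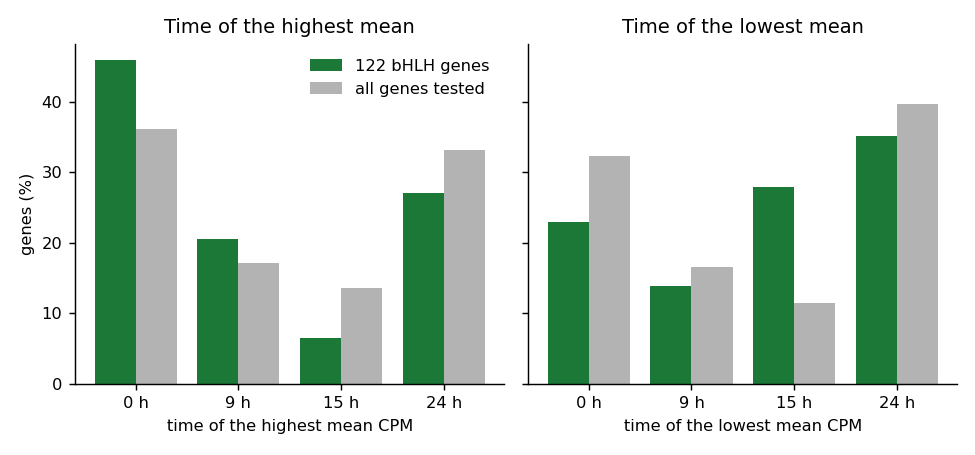
Share of genes (%) whose mean CPM was highest (left) or lowest (right) at each time of withering, for the 122 bHLH genes (green) and all 26712 genes tested (grey). At 15 h, 27.9% of the bHLH genes and 11.5% of all genes had their lowest mean.

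A further 25 members (20.5%, against 17.2% of all genes) were at their highest at 9 h, CsbHLH among them. The study amplified its coding sequence with the primers below, printed without their vector overhangs, with the start codon and the complement of the stop codon in capitals to show that they frame the whole reading frame.
CsbHLH forward: ATGgcagaggaatttcaagc
CsbHLH reverse: CTAcctgaatgttcctccaa
The gene, MSTRG.8952 (CSS003725), lies on Scaffold161 from 803822 to 806634 on the plus strand. Its level was 2.59, 2.97 and 3.24 CPM at 0 h, 18.0, 13.9 and 15.1 CPM at 9 h, 11.5, 10.4 and 9.23 CPM at 15 h, and 4.62, 6.44 and 6.41 CPM at 24 h. No libraries of different times overlapped, so it rose by 9 h and then declined in each step. The log2 fold change against 0 h was 2.42 (SE 0.17, edgeR quasi-likelihood adjusted p = 6.62e-08) at 9 h, 1.82 (SE 0.17) at 15 h. By 24 h it was 0.99 (SE 0.16, edgeR quasi-likelihood adjusted p = 0.000115). The call at 24 h was lost with library size as the only scaling (0.32, adjusted p = 0.101). From 9 to 15 h the change was -0.60 (SE 0.16) and from 15 to 24 h it was -0.83 (SE 0.16).

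MSTRG.50643 (CSS005617, Scaffold953) had the largest rise named at 9 h. It went from 2.91, 2.96 and 2.1 CPM at 0 h to 21.6, 22.5 and 18.9 CPM at 9 h, 10.1, 11.4 and 10.3 CPM at 15 h, and 2.42, 1.88 and 2.37 CPM at 24 h. Its 24 h libraries overlapped those of 0 h (log2 fold change -0.25, SE 0.16, edgeR quasi-likelihood adjusted p = 0.16). MSTRG.25118 (CSS009618) rose by 2.43 at 9 h (SE 0.37) and 2.29 at 15 h (SE 0.37), from 0.423 ± 0.101 to 2.29 ± 0.693 and 2.09 ± 0.668 CPM, and was at 0.673 ± 0.215 CPM at 24 h. MSTRG.50643 fell from 9 to 15 h (log2 fold change -0.99, SE 0.15), whereas the libraries of MSTRG.25118 at those times overlapped (-0.14, SE 0.34, edgeR quasi-likelihood adjusted p = 0.797).

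A smaller set had the reverse course, low at 9 h and higher at 15 h. MSTRG.16459 (CSS041927, Scaffold220) was at 188, 178 and 166 CPM at 0 h, 29.6, 28.9 and 32.8 CPM at 9 h, 108, 113 and 125 CPM at 15 h, and 32.1, 23.7 and 29.2 CPM at 24 h. Its changes from time to time were -2.54 (SE 0.11), 1.92 (SE 0.11) and -2.02 (SE 0.11) on the log2 scale. MSTRG.24712 (CSS032451, Scaffold3046) shared this shape with smaller steps, at 227 ± 8.15, 148 ± 10.7, 259 ± 1.17 and 78.1 ± 2.47 CPM. MSTRG.17829 (CSS033795) went from 22.0 ± 2.40 to 5.15 ± 0.218 and then 22.3 ± 5.65 CPM over these times, and MSTRG.17403 (CSS029740) went from 7.68 ± 0.43 to 0.757 ± 0.0624 and back to 3.71 ± 0.32 CPM. MSTRG.380 (CSS047949) had the largest rise named from 9 to 15 h, 2.48 on the log2 scale (SE 0.21), from 1.56 ± 0.472 to 8.74 ± 0.565 CPM. MSTRG.38314 (CSS033556) fell by 2.59 at 9 h (SE 0.18), from 21.8 ± 0.602 to 3.61 ± 0.569 CPM, and was at 7.90 ± 1.24 and 9.84 ± 2.01 CPM at 15 and 24 h.

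The ILI1 binding bHLH 1 gene, MSTRG.10435 (CSS044833, Scaffold172 from 2167865 to 2171159, plus strand), belonged to this set at 9 h. It was at 62.0, 61.9 and 61.4 CPM at 0 h and 34.0, 35.7 and 34.6 CPM at 9 h. By 15 h it had returned to 67.4, 66.9 and 78.3 CPM, and at 24 h it was at 65.5, 62.6 and 68.0 CPM. The fall at 9 h was 0.83 on the log2 scale (SE 0.08, edgeR quasi-likelihood adjusted p = 1.08e-06). At 15 h the log2 fold change of 0.20 (SE 0.08, adjusted p = 0.0397) passed narrowly, and it was -0.10 with library size as the only scaling. The call was lost without any of the 0 h or 9 h libraries, without 24 h replicate 3 and without 15 h replicate 3 (edgeR quasi-likelihood adjusted p of 0.0502 to 0.236). It was also lost with the size factors of DESeq2, with both other filters and in the fit of only the times compared (edgeR quasi-likelihood adjusted p of 0.0509 to 0.0747). At 24 h it did not pass (0.08, SE 0.08, adjusted p = 0.355), and with library size as the only scaling it was -0.59 (adjusted p = 3.92e-06). The rise of MSTRG.24712 at 15 h (0.19, SE 0.07, adjusted p = 0.03) was of the same small size and turned to -0.10 with library size as the only scaling. It was lost without any of the 15 h libraries, without 0 h replicate 2 or 3 and without 24 h replicate 3 (edgeR quasi-likelihood adjusted p of 0.0519 to 0.101). With no filter on low counts it was lost too (edgeR quasi-likelihood adjusted p = 0.0522).

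The remaining 16 members did not pass the test of change over the 4 times. Of these, 13 had means of 0.113 to 1.34 CPM, and the other 3, named after their values were seen, were MSTRG.1336, MSTRG.42041 and MSTRG.1076. MSTRG.42041 (CSS020835) was at 57.3 ± 2.53, 62.6 ± 3.39, 59.8 ± 3.96 and 61.9 ± 2.46 CPM, and its libraries overlapped in each comparison with 0 h (edgeR quasi-likelihood adjusted p = 0.409 over the 4 times). At the other end of detection, CSS039427 had 54, 27 and 28 counts at 0 h and none at 24 h. Its 0 h mean of 0.412 CPM was 26.1-fold above a floor of 3 counts over the 24 h libraries. This ratio is no lower bound, since it leaves out the spread of the 0 h libraries. CSS010950 and CSS047034 had no count in any 15 h library, but at 0 h they had only 16, 0 and 16 and 0, 36 and 4 counts, so no fold is given for them.

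Few members were neighbours, in a search that left out the matching genes below the count minimum. The 119 scaffolds held 3 pairs of members, the closest 200 kb apart. On Scaffold5359, MSTRG.38771 and MSTRG.38785 lie 221 kb apart on the minus strand, and both were highest at 24 h. MSTRG.38785 (CSS019667) rose from 1.12 ± 0.564 to 9.50 ± 1.37 CPM over 24 h, a log2 fold change of 3.10 (SE 0.28), and MSTRG.38771 (CSS019663) from 18.7 ± 2.52 to 27.2 ± 5.97 CPM, a log2 fold change of 0.54 (SE 0.15, edgeR quasi-likelihood adjusted p = 0.00458). The other pairs, on Scaffold4000 and Scaffold1077, each had a gene highest at 9 h and a gene highest at 0 h. Reads shared between close copies elsewhere in the genome could have been split between members, since the counting step is not given in the sources used here.

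Relatives outside the definition were counted in the same way. Of all genes tested, 27.1, 30.3 and 34.7% were higher and 26.8, 29.0 and 39.1% lower at 9, 15 and 24 h than at 0 h. The counts below are to be read beside these shares. Of the 3 phytochrome-interacting factor genes, MSTRG.13141 was lower than at 0 h at each later time. MSTRG.12173 was higher at 9 h, MSTRG.32015 was higher at 24 h, and both were higher at 15 h. Of 15 family genes described under other spellings (cryptochrome-interacting bHLH, beta HLH protein 93, BR enhanced expression 3 and root hair defective 6 types), 9 were tested. The same 4 were lower than at 0 h both at 9 h and at 15 h, while the others did not pass. At 24 h 2 were higher than at 0 h and 4 were lower, with CSS011279 among these in place of MSTRG.28780. This list was made after the descriptions were seen. Of 114 tested genes described as myb domain proteins, the partner family, 36 rose and 29 fell at 9 h. At 15 h 39 rose and 36 fell, and by 24 h 42 had risen and 43 fallen. Their median log2 fold change at 15 h was -0.09, where that of the bHLH members was -0.63 and that of all genes tested was -0.01. No gene was described as transparent testa glabra, the WD40 partner of bHLH and MYB factors.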

How the data were processed

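Leaf RNA of withering tea shoots was measured in 12 libraries, 3 at each of 4 times, grouped by the titles in the labels. The authors deposited whole-number counts per gene, not normalized, in 1 table whose column names differ from the titles by 1 letter. HISAT2 2.0.5, StringTie 1.3.1, FastQC 0.10.1 and Trimmomatic are listed in the processing notes of the submitters. Not given in the sources used here were the build of the genome, the strand setting and the counter. Scaffold coordinates are those of the table.

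Counts were fitted in edgeR 4.0.16 (R 4.3.3) with TMM, filterByExpr by time, glmQLFit and glmQLFTest, time being the factor. The Benjamini-Hochberg adjustment covered all 26712 genes tested. The standard error is the log2 fold change divided by the square root of F. At these depths counting error matters only for genes of few counts.

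The members and gene lists were chosen with earlier results of these data known. Named genes are those with a mean of at least 1 CPM, passing the test without overlap between libraries, with the 8 largest changes each way at 9, 15 and 24 h against 0 h and the 4 largest in each later step. That mean covers all 12 libraries, so a gene could reach it through 1 time alone. MSTRG.19447, MSTRG.100 and MSTRG.33578 did so through 24 h, and MSTRG.5858 through 0 h. The rule also took the most counted members and those with a description or name of their own. Alternatives were DESeq2 1.42.0, its size factors, library size alone, other filters, only the times compared, a replicate block, each library left out, and a fold of at least 2. Figures were drawn with matplotlib 3.10.9 in Python 3.11.15. Lists for root and pollen genes, which hold widely expressed types such as RHD3 and extensin-like proteins, summed to 274 to 444 and 186 to 437 CPM. No pair of libraries agreed within sampling noise.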

Additional observations from a re-analysis of the deposited data

How the results depend on the processing

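The counts of members called stayed within 1.5 times of those given under DESeq2, its size factors, both other filters, the fit of only the times compared and each omitted library. Fewer members passed when a fold of at least 2 was tested in place of any change, since this test asks for more. Against 0 h, 10 rose and 18 fell to 9 h (8.20 and 14.8%, against 8.39 and 6.72% of all genes). To 15 h 12 rose and 27 fell (9.84 and 22.1%, against 10.3 and 10.6%), and to 24 h 17 rose and 37 fell (13.9 and 30.3%, against 18.5 and 23.2%). From 9 to 15 h 4 rose and 7 fell (3.28 and 5.74%, against 2.62 and 3.15%). From 15 to 24 h 16 rose and 11 fell (13.1 and 9.02%, against 7.10 and 9.06%). With library size as the only scaling 20 members were higher at 24 h, in place of 33. The log2 fold change then turned from 0.08 to -0.13 for MSTRG.23895 at 9 h, and at 15 h to -0.10 for MSTRG.10435, -0.10 for MSTRG.24712 and -0.18 for MSTRG.26346, and at 24 h to -0.59 for MSTRG.10435.

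With each library left out, 25 to 32 members were higher and 40 to 46 lower at 9 h, 19 to 24 and 55 to 62 at 15 h, and 31 to 34 and 51 to 56 at 24 h, while 15 to 20 rose and 28 to 39 fell from 9 to 15 h, 31 to 38 rose and 32 to 39 fell from 15 to 24 h, 100 to 108 changed over the 4 times, and 6 to 10 were highest at 15 h. Same-numbered libraries did not deviate together (r of -0.176 to 0.113 over 18 pairs, and 4 of 12 libraries matched their own number best). With 3 libraries per time, this check cannot tell whether the numbers pair the samples. With the replicate block 28 members rose and 46 fell to 9 h, 23 rose and 57 fell to 15 h, 32 rose and 52 fell to 24 h. Depth limits the 27 members under 1 CPM.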
